A study of Cyanidioschyzon merolae strain 10D with 12 samples.

Results

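The vesicle transport category of the deposited gene table holds 42 nuclear genes of Cyanidioschyzon merolae 10D, out of 4970 genes in all. Its members are every gene whose MapMan functional category is cell vesicle transport, a choice that used no measured value. C. merolae is a unicellular red alga of hot acidic springs, and the wild type was used throughout. Transcripts were measured by RNA-seq in batch cultures kept at 30 °C under 90 µmol photons and started at an optical density of 0.7. The 4 groups were cultures after 24 h at 5% CO2 (HC 0 h), the cultures 3 h (LC 3 h) and 24 h (LC 24 h) after the change to 0.04% CO2, and cultures returned to 5% CO2 for 24 h (recovery). Each group had 3 libraries, which the labels call biological replicates. No culture was kept at 5% CO2 alongside the others, so where CO2 differed it cannot be told apart from time in culture. HC 0 h and recovery were both at 5% CO2, and LC 3 h and LC 24 h both at 0.04%. In those comparisons, time spent at low CO2 cannot be told apart from time in culture.

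Vesicle transport moves membrane and cargo between the endoplasmic reticulum, the Golgi apparatus, endosomes, the vacuole and the cell surface. A coat buds a vesicle from the donor membrane, a tether holds it at the target, and SNARE proteins of both membranes zip together to fuse them, with Sec1/Munc18 proteins guiding the SNAREs. COPI coats carry material back from the Golgi to the endoplasmic reticulum and between Golgi cisternae, while clathrin with its adaptors works at the trans-Golgi, endosomes and plasma membrane. C. merolae has a very small cell with a single Golgi apparatus. Genes are named here after their closest Arabidopsis protein as the table lists it, and the roles given were worked out in Arabidopsis, yeast or animals, not in this alga.

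By role the 42 members were 12 SNAREs, 2 Sec1/Munc18 proteins, 6 COPI subunits, 7 clathrin and adaptor proteins, 4 tethers, 1 endosomal sorting protein, 4 lipid transfer and contact site proteins, and 6 Golgi membrane and cargo proteins. The list has no COPII coat protein and no Rab, ARF or SAR1 GTPase, whose genes sit in other categories of the table. The match was weak, with an E-value above 1e-05, for CMK196C and CMJ296C. Several pairs share 1 best match and 1 name, namely the KEULE pair CMS036C and CMD164C, the SYP124 pair CMI249C and CMK304C, the PRA1.B4 pair CMQ198C and CMJ260C, the ORP2A pair CMH242C and CMN301C, and the p24 pair CMJ296C and CMG098C. The RefSeq annotation of assembly ASM9120v1 lists all 42, of which 5 (CMN143C, CMT617C, CME025C, CMR155C and CMR212C) overlap another gene. The library kit kept no strand, so reads from such overlaps cannot be assigned to 1 gene with certainty.

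Totals ran from 9671514 to 28346661 estimated counts and were highest after recovery. Of the 42 members, 39 had at least 100 counts in every library, between 141 and 18884. CMC018C, CMK304C and CMG098C had under 50 counts in every library, and CMG098C did not pass the filter on low counts, which left 41 members tested among 4865 genes. Values below are normalised read counts (CPM) after TMM scaling, which give a gene's share of the reads of a library, so that fewer cells and less RNA per cell cannot be told apart. Together the 42 members took 0.734 to 0.761% of the counts in HC 0 h libraries and 0.529 to 0.577% in LC 3 h libraries. Their share was between 0.714% and 0.739% at LC 24 h and between 0.680% and 0.712% after recovery. These shares are of counts before TMM scaling. Each LC 3 h library had a TMM factor below 1 (0.946, 0.894 and 0.846), whereas every HC 0 h factor was above 1.03. The fall in unscaled share at LC 3 h is therefore larger than the fall that remains after scaling. Replicate 1 stood apart in every group, correlating with the other replicates at 0.953 to 0.984 across genes, against 0.991 to 0.996 between replicates 2 and 3. At LC 3 h it was the library farthest from the group mean for 30 of the 39 well-counted members. Plastid-genome transcripts took 0.511 to 0.887% of counts over all libraries, and 14 genes without a length took 1.37 to 6.46% of counts at LC 3 h and 0.161 to 0.827% elsewhere. With those 14 genes removed, an alternative chosen after seeing the data, 6 members were called higher and 15 lower at LC 3 h, and 8 and 14 at LC 24 h. Over all genes that fit called 1039 higher and 994 lower at LC 3 h, against 1076 and 939 in the main test. At LC 24 h it called 1515 and 1563, against 1590 and 1475. The calls over all genes thus also moved to the lower side. The part of the plastid transcripts in the results was not tested.

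At LC 3 h against HC 0 h, 6 of 41 members rose and 13 fell at an adjusted p under 0.05 in the edgeR quasi-likelihood test. Over all genes tested, 22.1% rose and 19.3% fell, so that among the members the called changes leaned to the lower side. The median log2 change was -0.14 over the members and 0.02 over all genes tested. The 13 that fell held all 6 COPI subunits together with clathrin heavy chain, while 4 of the 6 that rose were SNAREs. Upper-quartile scaling gave 4 members higher and 17 lower, and over all genes it moved the called changes that were higher to 39.5% from 53.4%. Without HC 0 h replicate 1, and likewise without LC 3 h replicate 2, 3 members were called higher, the count that a fit of only the 2 groups also gave.

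At LC 24 h against HC 0 h, 9 members rose and 12 fell, against 32.7% and 30.3% of all genes tested, and the median log2 change was 0.05 against 0.02 over all genes. The share of members called in either direction was thus below that of all genes, of which 63.0% changed. At LC 3 h it had been 46.3% of the members against 41.4% of all genes. After recovery against HC 0 h, 3 members were higher and 2 lower, near the 7.24% and 6.82% of all genes, with a median log2 difference of -0.03 against 0.01. Between recovery and LC 24 h, 5 members were higher and 8 lower after recovery, against 24.7% and 24.9% of all genes. Between the low-CO2 times, 15 members were higher and 3 lower at LC 24 h than at LC 3 h, against 23.7% and 29.5% of all genes, 53.2% in either direction. The median log2 difference between these times was 0.13 over the members and -0.05 over all genes. Upper-quartile scaling gave 19 members higher and 1 lower there. Over all genes it likewise moved the calls to the higher side, with 1422 higher and 1184 lower, against 1152 and 1435 in the main test. Without LC 3 h replicate 3, 1 member was lower at LC 24 h than at LC 3 h. Without LC 24 h replicate 3, 3 members in place of 5 were higher after recovery than at LC 24 h. The comparisons share libraries, so their counts are not independent of each other.

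**Figure D1:**
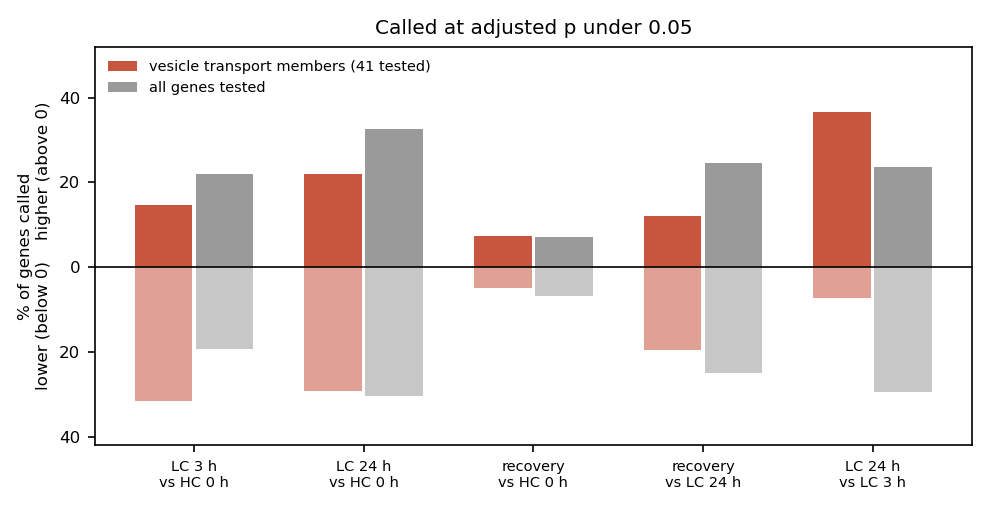
Percent of genes called higher (above 0) or lower (below 0) at an adjusted p under 0.05 in each of the 5 comparisons, for the 41 tested vesicle transport members (left bar) and all 4865 genes tested (right bar). The members show more lower calls than all genes at LC 3 h against HC 0 h, and more higher calls at LC 24 h against LC 3 h.

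No member reached a called change of 2-fold or more in any of the 5 comparisons, a size that 7.07% of all tested genes reached at LC 3 h and 14.6% at LC 24 h against HC 0 h. It was reached by 0.555% of all genes for recovery against HC 0 h, by 8.51% for recovery against LC 24 h and by 8.55% for LC 24 h against LC 3 h. The member changes were thus small in size, the widest called ones having a log2 change of 0.85 at LC 24 h. Of the 41 tested members, 5 were higher at both low-CO2 times than at HC 0 h and 7 were lower at both, which is 12.2% and 17.1% of the members, against 15.7% and 14.02% of all genes. A further 5 fell at LC 3 h alone (12.2%, against 4.42% of all genes) and 5 at LC 24 h alone (12.2%, against 15.1%). Another 3 rose at LC 24 h alone (7.32%, against 16.2%) and 1 at LC 3 h alone (2.44%, against 5.28%), and 1 was lower and then higher (2.44%, against 0.863%). The remaining 14 members passed neither test, or 34.1%, against 27.3% of all genes.

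**Figure D2:**
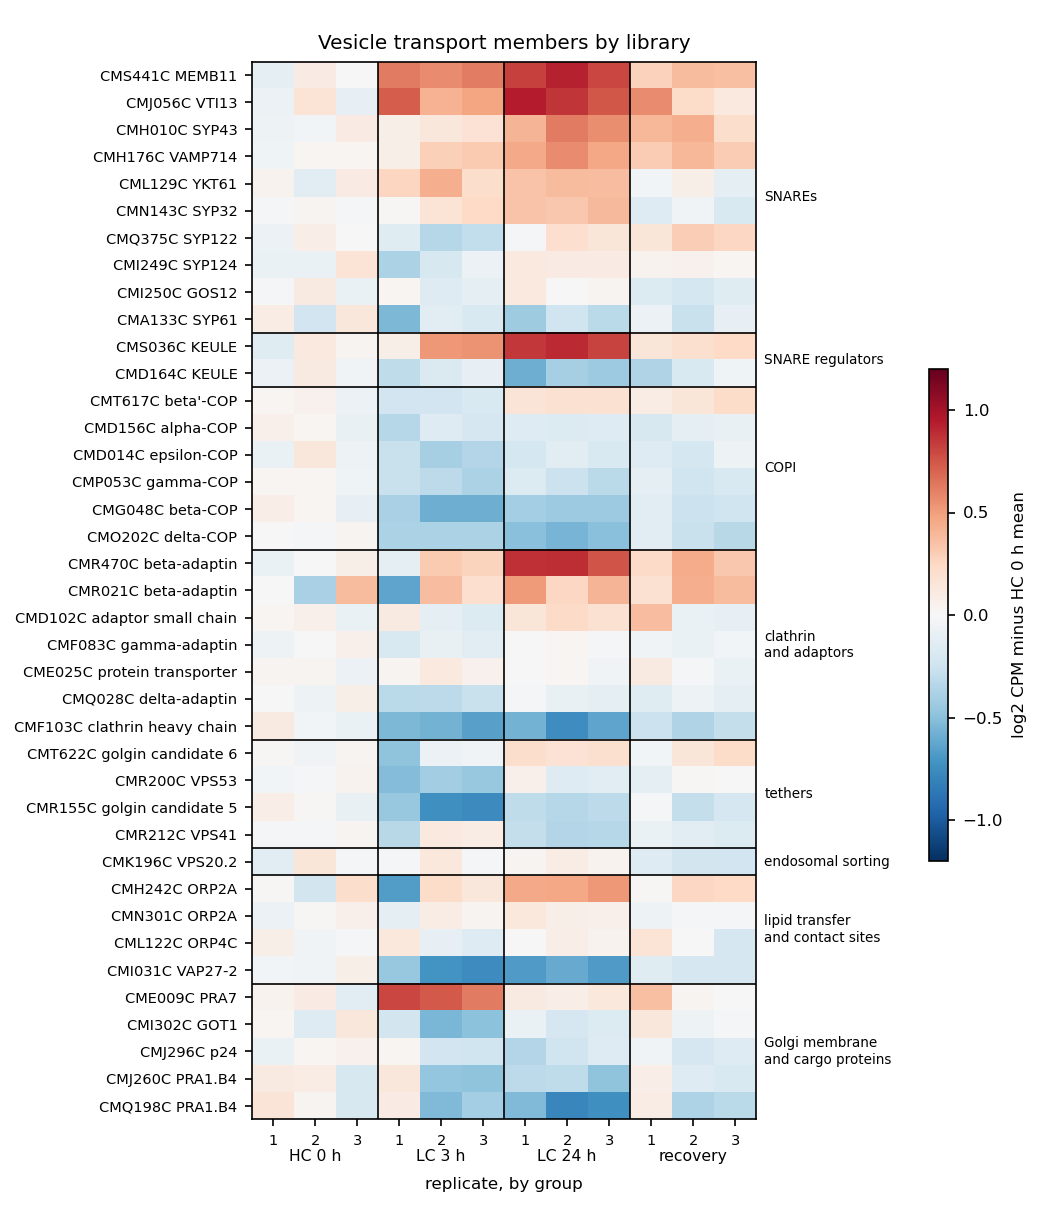
Log2 CPM of 39 well-counted members in each of the 12 libraries, minus the mean log2 CPM of the 3 HC 0 h libraries. Rows are members grouped by role and sorted within a role by their level at LC 24 h, and columns are libraries. COPI subunits are below their starting level at LC 3 h in every library, several SNAREs are above it at LC 24 h, and most rows are pale again after recovery.

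The SNAREs, the proteins that carry out membrane fusion, contained most of the members that rose. At LC 3 h 4 of the 12 rose and 1 fell, and at LC 24 h 6 rose and 1 fell, with medians of 0.14 and 0.28 on the log2 scale. That is 33.3% higher and 8.33% lower at LC 3 h, against 22.1% and 19.3% of all genes, and 50% and 8.33% at LC 24 h, against 32.7% and 30.3% of all genes. CMS441C, matched to the Golgi Qb-SNARE membrin MEMB11, had 65.6, 75.7 and 70.7 CPM at HC 0 h and 108, 104 and 108 CPM at LC 3 h. CMS441C had 125, 134 and 123 CPM at LC 24 h and 85.3, 92.0 and 90.5 CPM after recovery. Every low-CO2 library was above every HC 0 h library, and the recovery libraries lay between them. Its log2 change was 0.60 ± 0.07 (adjusted p = 5.01e-05) at LC 3 h and 0.85 ± 0.07 (adjusted p = 2.16e-06) at LC 24 h. CMJ056C, matched to VTI13, a Qb-SNARE of the route to the vacuole, had 41.2, 48.4 and 40.3 CPM at HC 0 h and 71.4, 57.5 and 60.0 CPM at LC 3 h. CMJ056C had 82.8, 78.4 and 72.2 CPM at LC 24 h and 64.0, 50.3 and 46.8 CPM after recovery. Its low-CO2 libraries did not overlap those at HC 0 h, and recovery replicate 1 was the highest of its group. It rose by 0.54 ± 0.13 (adjusted p = 0.00709) on the log2 scale at LC 3 h and by 0.84 ± 0.13 (adjusted p = 0.000219) at LC 24 h.

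CMH176C, matched to the R-SNARE VAMP714, was the SNARE with the highest CPM, at 170.4, 179 and 179 CPM at HC 0 h and 185, 215 and 219 CPM at LC 3 h. CMH176C had 241, 261 and 244 CPM at LC 24 h and 217, 233 and 217 CPM after recovery. All later libraries were above the HC 0 h libraries. The log2 change was 0.50 ± 0.07 (adjusted p = 0.000157) at LC 24 h and 0.23 ± 0.07 (adjusted p = 0.0277) at LC 3 h. The LC 3 h call of CMH176C ended on omitting HC 0 h replicate 1, 2 or 3, or LC 3 h replicate 2 or 3, in a fit of only the 2 groups or with upper-quartile scaling (adjusted p = 0.0553 to 0.139). CMH010C, matched to the trans-Golgi syntaxin SYP43, was called at LC 24 h but not at LC 3 h, with 33.2, 33.7 and 36.9 CPM at HC 0 h and 36.3, 38.0 and 38.9 CPM at LC 3 h. CMH010C had 45.9, 53.1 and 50.8 CPM at LC 24 h and 45.6, 46.8 and 40.0 CPM after recovery. Its LC 24 h libraries were above all at HC 0 h and LC 3 h but overlapped those after recovery, at a log2 change of 0.53 ± 0.09 (adjusted p = 0.000322). The SNAREs CML129C and CMN143C also rose at LC 24 h. CML129C, matched to the R-SNARE YKT61, changed by 0.36 ± 0.10 (adjusted p = 0.00681), and CMN143C, matched to the Golgi syntaxin SYP32, by 0.35 ± 0.07 (adjusted p = 0.00132), with 63.4 ± 1.56 CPM at LC 24 h and 49.7 ± 0.845 CPM at HC 0 h (SD, n = 3). CML129C also rose at LC 3 h, by 0.30 ± 0.10 (adjusted p = 0.0284). This call of CML129C ended on omitting HC 0 h replicate 1 or 2, or LC 3 h replicate 2, in a fit of only the 2 groups or with upper-quartile scaling (adjusted p = 0.0526 to 0.114).

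The SNARE that fell at LC 24 h was CMA133C, matched to the trans-Golgi Qc-SNARE SYP61, with 39.2 ± 2.60 CPM at LC 24 h and 49.6 ± 6.47 CPM at HC 0 h (log2 change -0.34 ± 0.13, adjusted p = 0.0345). The CMA133C call ended on omitting HC 0 h replicate 1 or 3, or LC 24 h replicate 1 or 3 or without replicate 1 of every group (adjusted p = 0.0635 to 0.122). The SNARE that fell at LC 3 h was CMQ375C, matched to the plasma membrane syntaxin SYP122, at 64.1 ± 4.64 CPM against 76.8 ± 3.94 CPM at HC 0 h (log2 change -0.26 ± 0.08, adjusted p = 0.0251). The CMQ375C call ended on omitting HC 0 h replicate 2 or 3, or LC 3 h replicate 2 or 3 (adjusted p = 0.0558 to 0.0897). CMQ375C was higher at LC 24 h than at LC 3 h, with a log2 difference of 0.37 ± 0.08 (adjusted p = 0.00336), and so was CMI249C, matched to the pollen plasma membrane syntaxin SYP124, with 0.32 ± 0.09 (adjusted p = 0.00991). Its neighbour CMI250C, matched to the Golgi SNARE GOS12 and next to it in the RefSeq table, passed no test against HC 0 h. With the replicate number as a block, CMI249C was also called lower at LC 3 h (adjusted p = 0.0428, against 0.0665 without it).

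The other SYP124 match, CMK304C, and the VAMP722 match CMC018C, an R-SNARE of secretion to the cell surface, were near the limit of detection. CMK304C had 0.196 to 1.55 CPM over all libraries and a log2 change of 1.29 ± 0.48 (adjusted p = 0.0515) at LC 3 h, which did not pass. CMC018C had 0.0709 to 1.30 CPM and passed no test, and at 1 to 32 counts a library the depth could not show a moderate change of it. A split of the SNAREs by the membrane at which the Arabidopsis match works was made after the values had been seen. Of 8 matched to Golgi, trans-Golgi or vacuole-route SNAREs, 6 rose and 1 fell at LC 24 h, against 32.7% and 30.3% of all genes, and their median was 0.43 on the log2 scale. Of 4 matched to plasma membrane SNAREs none was called at LC 24 h, with a median of 0.11, and 2 of those 4 were the low-count genes just described. The difference between these classes was not tested.

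The Sec1/Munc18 proteins of the category, which bind syntaxins and guide SNARE assembly, were 2 genes with the same best match. This was KEULE, the Arabidopsis protein needed for fusion at the growing cell plate. The match was closer for CMS036C (E-value 3e-32) than for CMD164C (3e-13). Genes matched to the Sec1/Munc18 proteins SLY1, SEC1B and VPS45 sit in the secretory targeting category, so these 2 are not the whole family. The 2 KEULE matches moved apart. CMS036C had 163, 196 and 185 CPM at HC 0 h and 189, 259.9 and 262 CPM at LC 3 h. CMS036C had 326, 336 and 316 CPM at LC 24 h and 199, 207 and 213 CPM after recovery. Every LC 24 h library was above every other library, while LC 3 h replicate 1 lay within the HC 0 h range. The log2 change was 0.85 ± 0.12 (adjusted p = 9.40e-05) at LC 24 h and 0.39 ± 0.12 (adjusted p = 0.0202) at LC 3 h. The LC 3 h call of CMS036C ended on omitting HC 0 h replicate 1, or LC 3 h replicate 2 or 3 or in a fit of only the 2 groups (adjusted p = 0.0706 to 0.0793). CMD164C had 151, 171 and 154 CPM at HC 0 h and 128, 141 and 148 CPM at LC 3 h. CMD164C had 106, 120.5 and 117 CPM at LC 24 h and 123, 139.8 and 153 CPM after recovery, with its lowest values at LC 24 h. It fell at LC 24 h, with a log2 change of -0.47 ± 0.09 (adjusted p = 0.00107), and its change of -0.19 ± 0.09 (adjusted p = 0.12) at LC 3 h did not pass, although the fit with the replicate block called it (adjusted p = 0.0317).

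The level per length of CMS036C over that of CMD164C, a ratio of TPM values within each library, was 1.15, 1.22 and 1.27 at HC 0 h and 1.57, 1.97 and 1.89 at LC 3 h. It reached 3.29, 2.97 and 2.88 at LC 24 h and was 1.72, 1.57 and 1.49 after recovery. The ratio was above 1 in all 12 libraries, and the LC 24 h libraries stood apart at the top. After recovery it had not come back into the HC 0 h range. Against LC 24 h, CMS036C was lower after recovery (log2 difference -0.66 ± 0.12, adjusted p = 0.000876) and CMD164C was higher (0.28 ± 0.09, adjusted p = 0.0267). The CMD164C call ended on omitting recovery replicate 3, or LC 24 h replicate 1 or 3 (adjusted p = 0.053 to 0.0849).

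All 6 subunits of the COPI coat found in the category fell at LC 3 h, where 19.3% of all genes did, by 0.21 to 0.52 on the log2 scale, with a median of -0.33. The 6 were the alpha, beta, beta', gamma, delta and epsilon subunits, and no zeta subunit is in the category. Beta-COP CMG048C, the subunit with the highest CPM, had 618, 598 and 546 CPM at HC 0 h and 449, 391 and 391 CPM at LC 3 h. CMG048C had 443, 434 and 435 CPM at LC 24 h and 537, 491 and 497 CPM after recovery. All low-CO2 libraries were below all HC 0 h libraries, with a log2 change of -0.52 ± 0.08 (adjusted p = 0.000572) at LC 3 h and -0.43 ± 0.08 (adjusted p = 0.00112) at LC 24 h. CMO202C, described as a medium adaptor subunit and matched to Arabidopsis delta-COP, had 201, 198 and 207 CPM at HC 0 h and 155, 155 and 155 CPM at LC 3 h. CMO202C had 143, 137 and 142 CPM at LC 24 h and 183, 168 and 160.4 CPM after recovery. The 3 LC 3 h libraries were close to each other and below all at HC 0 h, and LC 24 h was lower still. Its log2 change was -0.38 ± 0.06 (adjusted p = 0.000435) at LC 3 h and -0.52 ± 0.06 (adjusted p = 2.34e-05) at LC 24 h. After recovery CMO202C was below HC 0 h, with a log2 difference of -0.24 ± 0.06 (adjusted p = 0.0213), and above LC 24 h, with 0.28 ± 0.06 (adjusted p = 0.0026).

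Gamma-COP CMP053C fell to 253 ± 9.75 CPM at LC 3 h, against 315 ± 8.98 CPM at HC 0 h (log2 change -0.32 ± 0.07, adjusted p = 0.00266), and was still lower at LC 24 h (-0.24 ± 0.07, adjusted p = 0.00714). Epsilon-COP CMD014C was lower at both times, with log2 changes of -0.34 ± 0.07 (adjusted p = 0.00314) at LC 3 h and -0.18 ± 0.07 (adjusted p = 0.0453) at LC 24 h. Its LC 24 h call ended on omitting HC 0 h replicate 2, or LC 24 h replicate 1, 2 or 3, in a fit of only the 2 groups or with the replicate block (adjusted p = 0.052 to 0.192). Alpha-COP CMD156C, the large scaffold subunit, fell at LC 3 h (-0.23 ± 0.07, adjusted p = 0.0238). This call of CMD156C ended on omitting HC 0 h replicate 1 or 2 (adjusted p = 0.0682 to 0.0812). Its change of -0.16 ± 0.07 (adjusted p = 0.0763) at LC 24 h did not pass.

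Beta'-COP CMT617C, which binds cargo tails together with alpha-COP, took another course from the rest of the coat. It had 329, 335 and 308 CPM at HC 0 h and 276, 277 and 285 CPM at LC 3 h. CMT617C had 362, 367 and 366 CPM at LC 24 h and 344, 359 and 377 CPM after recovery. The LC 3 h libraries were below, and the LC 24 h libraries above, every HC 0 h library. The log2 change was -0.21 ± 0.06 (adjusted p = 0.0177) at LC 3 h and 0.17 ± 0.06 (adjusted p = 0.0317) at LC 24 h, and the difference between the low-CO2 times was 0.39 ± 0.06 (adjusted p = 0.000521). The LC 24 h call of CMT617C ended on omitting HC 0 h replicate 1 or 3, or LC 24 h replicate 2 or 3, with the 10 CPM filter, without the genes that have no length, in a fit of only the 2 groups, with relative-log-expression scaling or with upper-quartile scaling (adjusted p = 0.052 to 0.122). Its LC 3 h call ended on omitting HC 0 h replicate 1 or 2, or LC 3 h replicate 2 (adjusted p = 0.0531 to 0.0634). Of the summed TPM of the 6 subunits, beta'-COP made up 14.5 ± 0.135% at HC 0 h and 15.9 ± 0.523% at LC 3 h (SD, n = 3). Its share was 19.0 ± 0.219% at LC 24 h and 17.6 ± 0.847% after recovery. Delta-COP made up 11.0 ± 0.29% at LC 24 h and 13.7 ± 0.836% at HC 0 h, while epsilon-COP, the subunit with the largest share, stayed between 26.8% and 27.8% in the means of all 4 groups. CMT617C is 1 of the members that overlap another gene in the RefSeq table.

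Among the 7 clathrin and adaptor members, 2 fell at LC 3 h, and 1 rose and 1 fell at LC 24 h. The share called in either direction was 28.6% at both times, against 41.4% of all genes at LC 3 h and 63.0% at LC 24 h. CMF103C, the clathrin heavy chain that forms the legs of the coat lattice, had 879, 794 and 773 CPM at HC 0 h and 559.9, 550.4 and 519 CPM at LC 3 h. CMF103C had 548, 487 and 524 CPM at LC 24 h and 679, 634 and 669 CPM after recovery. It had the highest CPM of its role at HC 0 h, every low-CO2 library was below every HC 0 h library, and recovery lay between. The log2 change was -0.59 ± 0.08 (adjusted p = 0.000267) at LC 3 h and -0.65 ± 0.08 (adjusted p = 6.40e-05) at LC 24 h. After recovery it was -0.30 ± 0.08 (adjusted p = 0.0353) from HC 0 h and 0.35 ± 0.08 (adjusted p = 0.00591) from LC 24 h on the log2 scale. CMR470C, matched to a beta-adaptin, a large chain of the adaptor that links clathrin to cargo, changed the other way. Its match (E-value 3e-16) was weaker than that of CMR021C (2e-139), also matched to a beta-adaptin. Which adaptor CMR470C belongs to was not tested. CMR470C had 97.0, 103 and 108 CPM at HC 0 h and 94.4, 128 and 123 CPM at LC 3 h. CMR470C had 188, 189.6 and 173 CPM at LC 24 h and 119.9, 139 and 128 CPM after recovery. The LC 24 h libraries were the highest, while LC 3 h replicate 1 lay below the HC 0 h range and the other 2 above it. It rose at LC 24 h by 0.84 ± 0.11 (adjusted p = 5.69e-05) on the log2 scale and was higher than at LC 3 h by 0.67 ± 0.11 (adjusted p = 0.000475).

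Another beta-adaptin match, CMR021C, had replicate values of 56.7, 114 and 101 CPM at LC 3 h, so wide that its change of 0.01 ± 0.24 had a large error, and 0.36 ± 0.24 (adjusted p = 0.207) at LC 24 h did not pass. CMQ028C, matched to delta-adaptin, the large chain of the AP-3 adaptor of the route to the vacuole, fell to 161 ± 3.34 CPM at LC 3 h, against 198 ± 8.77 CPM at HC 0 h (log2 change -0.30 ± 0.06, adjusted p = 0.00155). At LC 24 h it was higher than at LC 3 h again (0.23 ± 0.06, adjusted p = 0.00681). Gamma-adaptin CMF083C, the large chain of AP-1 at the trans-Golgi, passed no test against HC 0 h, with log2 changes of -0.14 ± 0.05 at LC 3 h and 0.00 ± 0.05 at LC 24 h. It was called higher at LC 24 h than at LC 3 h (0.14 ± 0.05, adjusted p = 0.0477). This call of CMF083C ended on omitting LC 24 h replicate 1, 2 or 3, or LC 3 h replicate 1, 2 or 3, with the 10 CPM filter, without the genes that have no length or without replicate 1 of every group (adjusted p = 0.0585 to 0.182). CMD102C, a small adaptor chain, and CME025C, described as a protein transporter, passed no test in any comparison. CME025C ranged from 514 to 589 CPM over the 12 libraries.

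**Figure D3:**
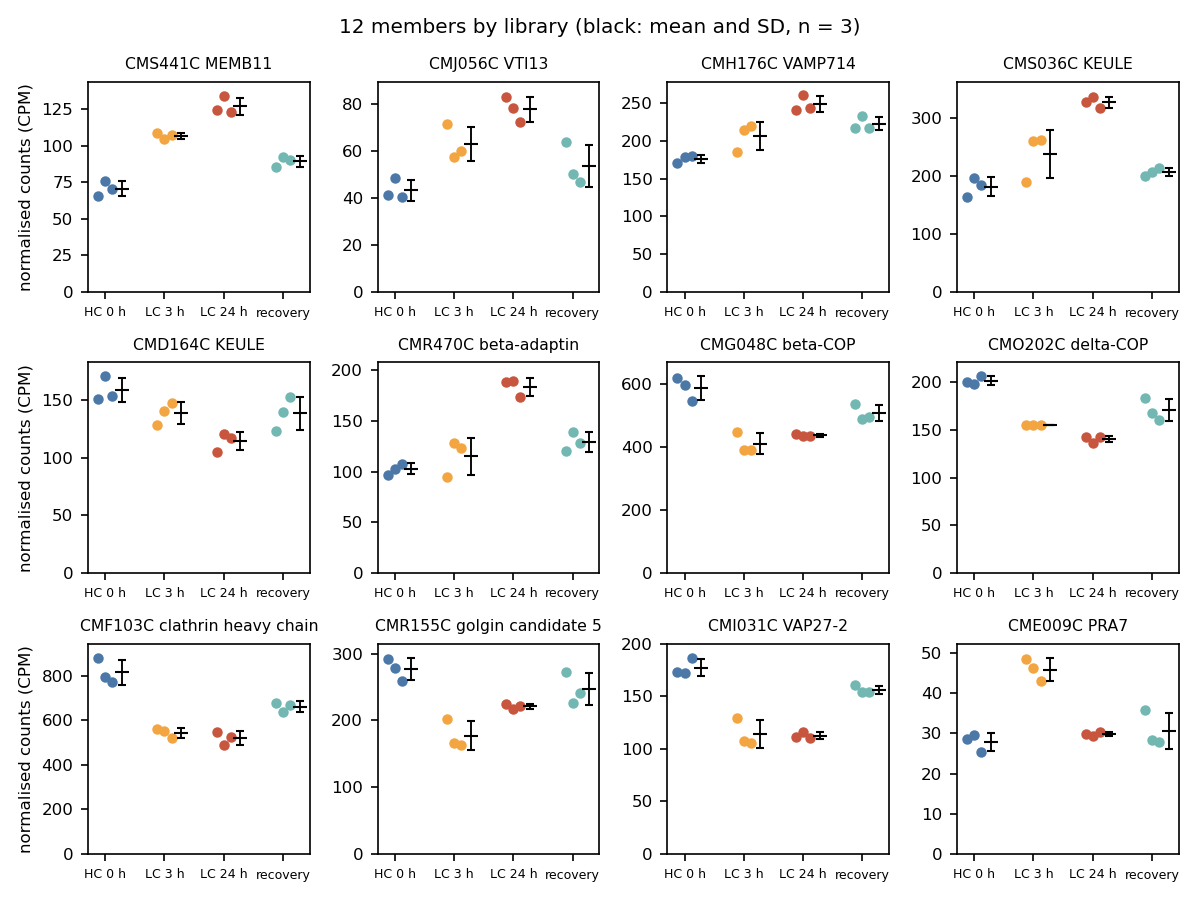
CPM in each library for 12 members, with HC 0 h, LC 3 h, LC 24 h and recovery from left to right and the mean ± SD of 3 libraries beside the points. CMS441C, CMJ056C, CMH176C, CMS036C and CMR470C are highest at LC 24 h, CMG048C, CMO202C, CMF103C and CMI031C are lower at both low-CO2 times than at HC 0 h, CMR155C is lowest at LC 3 h, and CME009C is highest at LC 3 h.

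Of 4 tethers, which capture vesicles before fusion, 2 fell at LC 3 h and 2 at LC 24 h, and 3 were higher and 1 lower at LC 24 h than at LC 3 h. Of all genes 19.3% fell at LC 3 h and 30.3% at LC 24 h, and 23.7% were higher and 29.5% lower at LC 24 h than at LC 3 h. CMR155C, matched to golgin candidate 5, a Golgi coiled-coil protein, had 293, 278 and 259 CPM at HC 0 h and 202, 166 and 163 CPM at LC 3 h. CMR155C had 224, 217 and 222 CPM at LC 24 h and 273, 226 and 241 CPM after recovery. Its LC 3 h libraries were the lowest, with replicate 1 highest among them. CMR155C changed by -0.64 ± 0.10 (adjusted p = 0.000343) at LC 3 h and -0.32 ± 0.10 (adjusted p = 0.012) at LC 24 h on the log2 scale. The difference of 0.32 ± 0.10 (adjusted p = 0.0163) between LC 24 h and LC 3 h ended as a call on omitting LC 3 h replicate 2 or 3 (adjusted p = 0.0934 to 0.102). CMR200C, matched to VPS53 of the complex that tethers endosome-derived vesicles at the trans-Golgi, was low at LC 3 h only, with 98.8, 106 and 103 CPM at LC 3 h and 139, 141 and 146 CPM at HC 0 h. The groups did not overlap, and the log2 change was -0.47 ± 0.07 (adjusted p = 0.000309) at LC 3 h and -0.07 ± 0.07 (adjusted p = 0.388) at LC 24 h. CMR212C, matched to VPS41, a tether of the vacuole membrane, fell at LC 24 h to 194 ± 4.72 CPM, against 243 ± 5.32 CPM at HC 0 h (-0.33 ± 0.10, adjusted p = 0.0156). Against LC 3 h its difference at LC 24 h was -0.30 ± 0.10 (adjusted p = 0.0293). This call of CMR212C ended on omitting LC 24 h replicate 2 or 3, or LC 3 h replicate 2 or 3, in a fit of only the 2 groups or with upper-quartile scaling (adjusted p = 0.0714 to 0.144).

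CMT622C, matched to golgin candidate 6, a p115-type tether, had the highest CPM of the tethers, with 301, 290.1 and 306 CPM at HC 0 h and 215, 285 and 291 CPM at LC 3 h. CMT622C had 345, 336 and 342 CPM at LC 24 h and 293, 331 and 347 CPM after recovery. LC 3 h replicate 1 was apart from the other 2 of its group, and no change against HC 0 h passed. It was higher at LC 24 h than at LC 3 h by 0.37 ± 0.11 (adjusted p = 0.0143). The endosomal sorting member CMK196C, weakly matched to the ESCRT-III subunit VPS20, had 88.1, 106 and 95.2 CPM at HC 0 h and 95.3, 105 and 94.5 CPM at LC 3 h. CMK196C had 98.3, 102 and 99.2 CPM at LC 24 h and 86.3, 82.4 and 81.9 CPM after recovery. Its level passed no test against HC 0 h, and it was lower after recovery than at LC 24 h (-0.26 ± 0.07, adjusted p = 0.0147). This call of CMK196C ended on omitting recovery replicate 2 or 3, or LC 24 h replicate 2 (adjusted p = 0.0523 to 0.0603).

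Among the 4 lipid transfer and contact site members, CMI031C fell at both low-CO2 times. It is matched to VAP27-2, a membrane protein of the endoplasmic reticulum that docks lipid transfer proteins, and had 173, 172 and 187 CPM at HC 0 h and 129.5, 108 and 105 CPM at LC 3 h. CMI031C had 111, 117 and 111 CPM at LC 24 h and 160.4, 155 and 154 CPM after recovery. Every low-CO2 library was below every library at HC 0 h and after recovery. CMI031C changed by -0.64 ± 0.08 (adjusted p = 9.78e-05) at LC 3 h and -0.65 ± 0.08 (adjusted p = 3.57e-05) at LC 24 h on the log2 scale. Recovery was above LC 24 h by 0.47 ± 0.08 (adjusted p = 0.000625). The 3 oxysterol-binding protein relatives, which exchange lipids between membranes, passed no test against HC 0 h. CMN301C, matched to ORP2A and the highest of them in CPM, had 229, 242 and 250.2 CPM at HC 0 h and 223, 255 and 246 CPM at LC 3 h. CMN301C had 263, 252 and 251 CPM at LC 24 h and 230.3, 238 and 236 CPM after recovery. The LC 24 h libraries lay just above those at HC 0 h and after recovery, and the other groups overlapped. CMH242C, also matched to ORP2A, had 152, 154 and 159 CPM at LC 24 h, against 69.9, 129 and 122 CPM at LC 3 h, where replicate 1 was apart. That difference was called (0.53 ± 0.19, adjusted p = 0.0368), and the call ended on omitting LC 24 h replicate 1, 2 or 3, or LC 3 h replicate 1 or in a fit of only the 2 groups (adjusted p = 0.0585 to 0.0832).

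The Golgi membrane and cargo members held the widest called change at LC 3 h. CME009C, matched to PRA7 of the PRA1 family of Rab acceptors, which help Rab GTPases onto Golgi and endosomal membranes, had 28.6, 29.7 and 25.4 CPM at HC 0 h and 48.6, 46.2 and 42.9 CPM at LC 3 h. CME009C had 29.9, 29.4 and 30.5 CPM at LC 24 h and 35.8, 28.4 and 27.9 CPM after recovery. All LC 3 h libraries were above all others. It rose by 0.72 ± 0.11 (adjusted p = 0.00039) on the log2 scale at LC 3 h, was 0.10 ± 0.11 (adjusted p = 0.436) from HC 0 h at LC 24 h and differed by -0.62 ± 0.11 (adjusted p = 0.000837) between LC 24 h and LC 3 h. CMQ198C, 1 of the PRA1.B4 pair, fell instead, with 112, 103 and 88.0 CPM at HC 0 h and 108, 69.5 and 75.7 CPM at LC 3 h. CMQ198C had 69.7, 58.4 and 60.3 CPM at LC 24 h and 107, 77.6 and 80.3 CPM after recovery. In every group replicate 1 was the highest library. The LC 24 h libraries were below all at HC 0 h (log2 change -0.68 ± 0.18, adjusted p = 0.00583), and LC 3 h did not pass (-0.26 ± 0.18, adjusted p = 0.268) except with the replicate block (adjusted p = 0.0337). After recovery it was higher than at LC 24 h (0.49 ± 0.17, adjusted p = 0.037). This call of CMQ198C ended on omitting recovery replicate 1, or LC 24 h replicate 2 or 3 (adjusted p = 0.0993 to 0.152).

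The other of the pair, CMJ260C, had the highest level per length of all 42 members at HC 0 h, 343 ± 40.1 TPM, above 89.2% of all genes with a length. It had 199, 197 and 161 CPM at HC 0 h and 203, 134 and 132 CPM at LC 3 h. CMJ260C had 149, 149 and 132 CPM at LC 24 h and 196, 166 and 163 CPM after recovery, with changes of -0.25 ± 0.16 (adjusted p = 0.236) at LC 3 h and -0.37 ± 0.16 (adjusted p = 0.0585) at LC 24 h that did not pass. Against LC 24 h, recovery was at 0.28 ± 0.16 (adjusted p = 0.153), a difference that passed only with the replicate block (adjusted p = 0.0427). Next in level per length at HC 0 h were VAMP714 match CMH176C, with 296 ± 4.84 TPM, and epsilon-COP CMD014C, with 285 ± 19.8 TPM. The HC 0 h libraries of these 3 genes overlapped in TPM. CMI302C, matched to the Golgi transport protein GOT1, fell at LC 3 h (-0.42 ± 0.12, adjusted p = 0.0159). This call of CMI302C ended on omitting HC 0 h replicate 3, or LC 3 h replicate 2 or 3 or in a fit of only the 2 groups (adjusted p = 0.0552 to 0.0716). CMJ296C, matched to a p24 cargo receptor, fell at LC 24 h (-0.25 ± 0.09, adjusted p = 0.0311). This call of CMJ296C ended on omitting HC 0 h replicate 2 or 3, or LC 24 h replicate 1 or 2 (adjusted p = 0.0684 to 0.106). The other p24 match, CMG098C, had 2 to 26 counts a library and was not tested.

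SNARE transcripts and COPI transcripts were set side by side by their summed TPM within each library. This ratio does not depend on how libraries are scaled to each other. Over all 12 SNAREs and 6 COPI subunits it was 0.934, 0.941 and 1.03 at HC 0 h and 1.28, 1.40 and 1.42 at LC 3 h. It came to 1.46, 1.53 and 1.47 at LC 24 h and to 1.19, 1.26 and 1.16 after recovery. The 4 groups did not overlap each other. VAMP714 match CMH176C gave the largest single part of the SNARE sum, and without it the ratio averaged 0.687 ± 0.041 at HC 0 h and 0.949 ± 0.0277 at LC 3 h (SD, n = 3). The averages without it were 1.03 ± 0.0188 at LC 24 h and 0.814 ± 0.0283 after recovery. The ratio joins genes whose changes were known, so it is given as a description with no test.

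**Figure D4:**
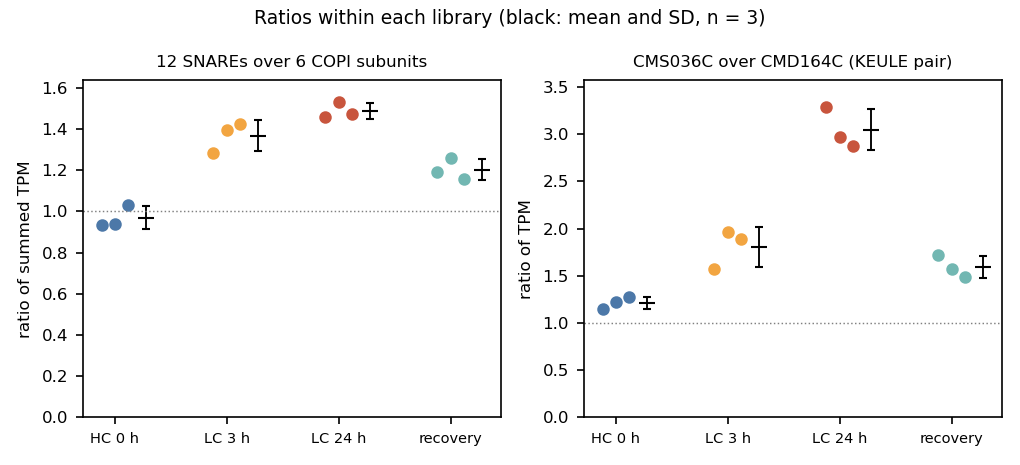
Ratios within each of the 12 libraries, with HC 0 h, LC 3 h, LC 24 h and recovery from left to right, the mean ± SD of 3 libraries beside the points and a dotted line at 1. Left, summed TPM of the 12 SNAREs over that of the 6 COPI subunits, which is near 1 at HC 0 h and between 1.46 and 1.53 at LC 24 h. Right, TPM of CMS036C over that of CMD164C, which is between 2.88 and 3.29 at LC 24 h and lower in the other groups.

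Recovered cultures still differed from HC 0 h in 5 members. The SNAREs CMS441C, CMH010C and CMH176C were higher, by 0.34 ± 0.07 (adjusted p = 0.01), 0.35 ± 0.09 (adjusted p = 0.0225) and 0.34 ± 0.07 (adjusted p = 0.0144) on the log2 scale. The clathrin heavy chain CMF103C and delta-COP CMO202C were lower, with the values given above. All 5 calls ended without recovery replicate 2 (adjusted p = 0.0619 to 0.149), and 4 of the 5 without HC 0 h replicate 1, the exception being CMS441C. CMO202C and CMF103C also lost the call without HC 0 h replicate 3 (adjusted p = 0.07 and 0.0607) and without recovery replicate 3 (0.0762 and 0.0895), and CMF103C and CMH010C without HC 0 h replicate 2 (0.0712 and 0.0702). Without replicate 1 of every group the counts were 8 higher and 10 lower, and the share of all genes called in that fit was not worked out. Whether this rise in calls was particular to the members was not tested.

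Between recovery and LC 24 h, 5 of the 12 SNAREs were lower after recovery and none was higher, against 24.9% and 24.7% of all genes. These were CMS441C (-0.51 ± 0.07, adjusted p = 0.000133), CMJ056C (-0.54 ± 0.13, adjusted p = 0.00533), CMN143C (-0.48 ± 0.07, adjusted p = 0.000286), CML129C (-0.39 ± 0.09, adjusted p = 0.00599) and CMI250C (-0.22 ± 0.08, adjusted p = 0.0329). The CMI250C call ended on omitting recovery replicate 1, 2 or 3, or LC 24 h replicate 1, 2 or 3, with the 10 CPM filter, in a fit of only the 2 groups or without replicate 1 of every group (adjusted p = 0.0505 to 0.138). Beta-adaptin CMR470C was lower as well (-0.51 ± 0.11, adjusted p = 0.00249). Of the COPI subunits only delta-COP CMO202C passed, while beta-COP CMG048C was at 0.22 ± 0.08 (adjusted p = 0.0504) and passed with the replicate block (adjusted p = 0.0173). VAMP714 match CMH176C was at -0.16 ± 0.07 (adjusted p = 0.0887) and passed with the block too (adjusted p = 0.0435).

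The authors' deposited table lists a q-value under 0.05 for 652 of its 4970 genes at LC 3 h. At LC 24 h such values are listed for 1152 genes and after recovery for 147. Among the 42 members the share was smaller each time, with 2 at LC 3 h, 6 at LC 24 h and none after recovery. Those at LC 3 h were CMR155C and CMI031C. Those at LC 24 h were CMJ056C, CMS441C, CMS036C, CMR470C, CMI031C and CMQ198C, all of which were called here in the same direction. No COPI subunit was among them. The test behind the authors' q-values is not given in the sources used here.

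The other genes of the pathway, 99 in all, were the 38 of secretory protein targeting, the 49 of the G-protein category, which also holds GTPases with no part in vesicle traffic, and 12 taken by their descriptions. Of 98 tested, 15 rose and 30 fell at LC 3 h, 26 rose and 31 fell at LC 24 h, and 5 were higher and 4 lower after recovery, in each case against HC 0 h. At LC 3 h 15.3% were higher and 30.6% lower, against 22.1% and 19.3% of all genes, and 31.7% of the vesicle transport members were lower. The shares were 26.5% and 31.6% at LC 24 h, against 32.7% and 30.3% of all genes, and 5.10% and 4.08% after recovery, against 7.24% and 6.82%. CMK192C, matched to SEC61, the channel through which new proteins enter the endoplasmic reticulum, fell to 197 ± 6.48 CPM at LC 3 h, against 378 ± 23.0 CPM at HC 0 h (log2 change -0.94 ± 0.18, adjusted p = 0.00151). CMF015C, matched to ARFA1E, an ADP-ribosylation factor of the class that recruits COPI, fell at both times, with log2 changes of -0.86 ± 0.10 (adjusted p = 5.14e-05) at LC 3 h and -1.56 ± 0.10 (adjusted p = 6.22e-07) at LC 24 h. CMT196C, matched to SAR1, the GTPase that starts COPII coats, fell as well, with log2 changes of -0.72 ± 0.18 (adjusted p = 0.0089) at LC 3 h and -1.39 ± 0.18 (adjusted p = 7.79e-05) at LC 24 h.

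CMP339C, matched to the SNARE BET11 but placed in another category, rose by 0.88 ± 0.07 (adjusted p = 6.49e-06) at LC 3 h and 0.72 ± 0.07 (adjusted p = 1.22e-05) at LC 24 h, and was 0.30 ± 0.07 (adjusted p = 0.0234) from HC 0 h after recovery. CMB077C, a signal peptidase I family protein, rose by 1.49 ± 0.08 (adjusted p = 2.58e-07) at LC 3 h, and the SEC14-type lipid transfer protein CMB109C by 1.39 ± 0.25 (adjusted p = 0.0012). CMJ024C, listed as a plant adhesion molecule, rose by 1.36 ± 0.17 (adjusted p = 0.000109) at LC 3 h and 1.82 ± 0.17 (adjusted p = 7.27e-06) at LC 24 h. The Ran-binding protein CMH178C fell at LC 24 h, with a log2 change of -1.65 ± 0.17 (adjusted p = 1.16e-05). After recovery CMH178C was still below HC 0 h (-0.72 ± 0.16, adjusted p = 0.0176).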

How the data were processed

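RNA-seq libraries of 12 C. merolae cultures, 3 for each of 4 groups, were read as paired ends from a kit that keeps no strand, per the labels' protocols. The deposited table gives estimated counts, TPM values per library and as the authors' group means, and the authors' log2 fold changes and q-values against HC 0 h. The authors' deposited log2 fold changes and q-values come with no stated test. The submitters' processing notes name RSEM, Bowtie2, edgeR and CASAVA 1.8. What each tool did, and which genome build and annotation were used, is not given in the sources used here, and coordinates are left out. Of the deposited estimated counts 94.0% were within 1e-09 of a whole number, and all were rounded before testing. The authors' deposited TPM values were recomputed from counts and gene lengths to within 3.6e-06, and 14 genes have no length. All columns were matched by name, with 0 left unmatched.

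The main test was that of edgeR 4.0.16 (R 4.3.3), with the 12 libraries in a single model of 4 groups, the default expression filter, which removed 105 genes, TMM scaling, the robust quasi-likelihood F test and Benjamini-Hochberg adjustment over the 4865 genes tested, called at an adjusted p under 0.05. The test was checked on simulated counts with 200 genes changed at LC 3 h. It called 97.0% of the 2-fold changes and 53.5% of the 1.5-fold changes. The simulation changed far fewer genes than the 2015 called here at LC 3 h, so its rates need not hold for the members. A member that did not pass may still have changed, and the size of such a change was not bounded. CMK304C, with few counts, had a log2 change of 1.29 at LC 3 h and did not pass. Standard errors are the absolute log2 change over the square root of F. Errors of means are SD with n = 3. The p-values set a group difference against a spread estimated from all 12 libraries and moderated over the genes tested, not against the SD printed. Library totals ran from 9671514 to 28346661 counts, and no replicate pair agreed within sampling noise.

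Members came from the table's category. Roles were set from the descriptions, 26 by word patterns, 10 that the patterns left out by hand and 6 moved by hand. Members and lists were chosen with earlier results of these data known. Every member may be named. Values of every library are given for the 12 widest called changes against HC 0 h and the member of highest CPM in each role, and genes outside the category are the 3 largest called rises and falls of their list. Not every such gene is described.

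Replicate numbers come from the sample titles. Deviations from the group means of same-numbered libraries correlated at 0.243 to 0.456 between HC 0 h and LC 3 h and at 0.212 to 0.535 between LC 24 h and recovery, over 0.1 in every pair. The numbers were taken to pair these groups, on that correlation alone, and the main test did not use the pairing. Between the other groups compared, at least 1 pair was under 0.1. LC 3 h and recovery were not compared, and their same-numbered libraries correlated at 0.266 to 0.477. Over all groups, different-numbered libraries correlated at -0.559 to 0.456 (median -0.180), against a median of 0.296 for the same number. Some different-numbered pairs were thus as close as same-numbered ones, and the pairing is uncertain. The alternatives tried were scaling by relative log expression or by the upper quartile, no filter or 1 of 10 CPM in at least 3 libraries, DESeq2 1.42.0, the replicate number as a block, a fit of only the 2 groups compared, and each library left out. After the data had been seen, 2 were added, leaving out replicate 1 of every group and removing the genes with no length.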

Additional observations from a re-analysis of the deposited data

Results flagged for a closer look

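Beta'-COP CMT617C was 0.39 higher on the log2 scale at LC 24 h than at LC 3 h (SE 0.06, edgeR quasi-likelihood adjusted p = 0.000521), after a fall at LC 3 h and a rise at LC 24 h, both against HC 0 h. It is listed because the difference between the low-CO2 times was itself called and its changes against HC 0 h were called in opposite directions. Of the 18 members called between the low-CO2 times it was the 1 for which that held. The LC 24 h minus HC 0 h call is the weaker one, at an adjusted p = 0.0317, and it ended under 9 alternatives (adjusted p = 0.052 to 0.122). CMT617C overlaps another gene in the RefSeq table, and the part of reads from that gene was not tested.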

How the results depend on the processing

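Of 76 member calls over the 5 comparisons, 49 were kept under every alternative run and 27 ended under at least 1, and none changed direction. Leaving out 1 library at a time gave 3 to 9 members higher and 10 to 16 lower at LC 3 h against HC 0 h, 8 to 9 and 9 to 11 at LC 24 h against HC 0 h, 0 to 4 and 0 to 2 for recovery against HC 0 h, 3 to 5 and 6 to 8 for recovery against LC 24 h, and 11 to 14 and 1 to 3 for LC 24 h against LC 3 h. A fit of only the 2 groups gave 3 higher at LC 3 h, 1 lower for recovery against HC 0 h, and 8 higher for recovery against LC 24 h. Without replicate 1 of every group the counts were 8 higher and 10 lower for recovery against HC 0 h, 9 higher for recovery against LC 24 h and 5 lower for LC 24 h against LC 3 h. DESeq2 gave 4 higher and 5 lower for recovery against HC 0 h, and upper-quartile scaling 1 lower for LC 24 h against LC 3 h. Over all genes DESeq2 called 512 higher and 559 lower for recovery against HC 0 h, against 352 and 332 in the main test. Upper-quartile scaling called 1184 of all genes lower for LC 24 h against LC 3 h, against 1435 in the main test. For the other fits named here the share of all genes called was not worked out. The cause of these moves was not tested. With the replicate number as a block, 6 members in place of 2 were lower for recovery against HC 0 h, and the other counts stayed within 1.5 times. In the comparisons where the numbers were taken to pair, the block added calls for CMD164C, CMI249C and CMQ198C at LC 3 h against HC 0 h. It also added calls for CMG048C, CMH176C and CMJ260C between recovery and LC 24 h, and changed no other call in these comparisons. CMC018C, CMK304C and CMG098C were too low in counts to show moderate changes.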
